A study of Mus musculus with 8 samples.

Results

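The 6 genes described here encode receptors that couple to the stimulatory G protein Gs and raise cyclic AMP, as the histamine H2 receptor (H2R) does. They are Adora2a and Adora2b, which encode adenosine receptors, Ptger2 and Ptger4, which encode the EP2 and EP4 receptors for prostaglandin E2, Ptgir, which encodes the prostacyclin receptor, and Adrb1, which encodes the beta-1 adrenergic receptor. They were chosen by name for this shared coupling and not by a cut-off on their values, although earlier results of these data were known. They are 6 of 49315 gene identifiers counted. RNA was sequenced from neutrophils drawn into the peritoneal cavity of C57BL/6 mice aged 2 months by casein, a milk protein, and separated by density. The 4 groups of 2 libraries were low-density neutrophils from H2R-deficient mice (libraries 1 and 2), high-density neutrophils from H2R-deficient mice (libraries 1 and 2), low-density neutrophils from wild-type mice (libraries 2 and 4) and high-density neutrophils from wild-type mice (libraries 2 and 4). All groups share the strain, the age and the casein stimulus, and no group is of unstimulated or circulating neutrophils. The labels name no targeted part of Hrh2, the H2R gene, no Cre or conditional allele, and do not tell if 2 libraries of a group stem from different, the same or pooled animals. The p-values therefore measure library spread that could be technical.

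An agonist-bound receptor of this class activates Gs, which stimulates adenylyl cyclase to make cyclic AMP. Cyclic AMP acts through protein kinase A and the exchange factors Rapgef3 and Rapgef4, and in neutrophils a rise of it is known to restrain the oxidative burst, degranulation, adhesion and chemotaxis. Adenosine, prostaglandin E2, prostacyclin, catecholamines and histamine reach that step through different receptors, so loss of H2R does not by itself remove the other routes to the same second messenger. The data here are RNA counts, and hold no measure of receptor protein or of cyclic AMP.

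The sequences that precede the start of the receptor genes are shown because some of the receptors had opposite differences between the density populations. Each is the 250 bases before the RefSeq gene start (GRCm38.p6), 5′ to 3′ on the strand of the gene, and capitals mark the GC box, GGGCGG or its reverse complement CCGCCC, the site bound by Sp1-family factors.
Adora2b, chr11:62248734-62248983, plus strand: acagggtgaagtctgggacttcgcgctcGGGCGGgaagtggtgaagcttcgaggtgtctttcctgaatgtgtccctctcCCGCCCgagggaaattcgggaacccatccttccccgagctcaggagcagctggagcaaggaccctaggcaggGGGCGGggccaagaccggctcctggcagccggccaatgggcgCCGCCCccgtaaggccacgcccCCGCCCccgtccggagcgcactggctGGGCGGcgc
Ptger2, chr14:44987861-44988110, plus strand: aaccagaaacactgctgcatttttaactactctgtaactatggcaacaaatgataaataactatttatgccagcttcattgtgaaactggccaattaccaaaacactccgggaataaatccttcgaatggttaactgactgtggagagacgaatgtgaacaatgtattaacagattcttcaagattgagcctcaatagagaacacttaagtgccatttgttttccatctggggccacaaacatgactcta
Ptger4, chr15:5244188-5244437, minus strand: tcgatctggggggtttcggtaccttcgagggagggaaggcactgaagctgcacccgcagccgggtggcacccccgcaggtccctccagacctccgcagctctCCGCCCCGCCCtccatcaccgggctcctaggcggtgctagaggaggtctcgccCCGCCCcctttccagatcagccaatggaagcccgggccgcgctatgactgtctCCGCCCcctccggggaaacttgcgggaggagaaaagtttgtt
Ptgir, chr7:16906240-16906489, plus strand: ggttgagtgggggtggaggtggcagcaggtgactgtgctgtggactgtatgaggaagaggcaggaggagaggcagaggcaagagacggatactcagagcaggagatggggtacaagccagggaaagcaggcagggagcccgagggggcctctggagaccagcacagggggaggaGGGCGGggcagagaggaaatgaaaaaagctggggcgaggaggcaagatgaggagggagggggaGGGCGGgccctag
The Ptger2 window stands apart from the other three shown: its GC content is 38.0% and it holds 0 GC boxes, against 69.6% and 6 boxes for Adora2b, 66.8% and 4 boxes for Ptger4 and 63.6% and 2 boxes for Ptgir, with overlapping matches counted separately. The Ptger2 window ends at 44988110, short of the start of the counted gene at 44988195, while the other windows shown adjoin their counted genes. Whether its contrast with them depends on the start used was not tested. Of 32851 RefSeq windows of the same length, 32.7% hold at least 1 GC box. The cyclic AMP response element TGACGTCA, to which CREB binds, is in 0 of these 4 windows and in 1.55% of all windows. Its core TGACG, which the full element contains on both strands, is also in 0 of the 4 and in 17.8% of all windows, and the AP-1 element TGANTCA is in 0 of the 4 and in 6.75% of all. Both strands were searched. Promoter entries were matched for 5 of the 6 genes, not for Adora2a. The window of Adrb1 has a GC content of 74.0%, 1 GC box and 1 match to TGACG, and is not printed because its transcript was barely counted.

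Each library held 19862716 to 24199215 counts assigned to genes, and 5 of the 6 receptors passed the filter on low counts that left 14909 genes. Scaling matters for every density comparison: TMM, which assumes that most genes do not differ, gave factors of 1.11 to 1.49 in low-density libraries and 0.742 to 0.808 in high-density libraries. Across all tested genes the median log2 fold change of low against high density was 0.098 in H2R-deficient cells and 0.096 in wild-type cells with TMM, but 1.0 and 0.67 when libraries were scaled by total counts alone. The targeted gene Hrh2 was counted in every library, with 435 and 215 reads in H2R-deficient low-density cells, 599 and 275 in H2R-deficient high-density cells, 556 and 830 in wild-type low-density cells and 2003 and 700 in wild-type high-density cells. It did not pass the test of genotype at low density (log2 fold change -1.48 ± 0.55 SE, edgeR adjusted p = 0.196) or at high density (-1.60 ± 0.55 SE, edgeR adjusted p = 0.192). In low against high density its log2 fold change was -1.42 ± 0.55 SE in H2R-deficient cells (edgeR adjusted p = 0.0631) and -1.53 ± 0.54 SE in wild-type cells (edgeR adjusted p = 0.0984). With the library number as a block, a pairing that the labels do not give, edgeR called both (edgeR adjusted p = 0.0105 and 0.0362). That fit leaves 2 residual degrees of freedom, and the share of all genes it called in these comparisons is not given here. Because no source used here gives the deleted part, counts over the whole gene do not check the labels.

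Markers of several other cells differed with density, and those of others were called little or in both directions. The summed level of 12 neutrophil markers was 28540 to 37309 CPM (counts scaled to a fixed library sum, here of all gene counts) in H2R-deficient low-density libraries and 55930 to 56597 CPM in H2R-deficient high-density libraries, against 40277 to 51060 CPM in wild-type low-density and 52547 to 54619 CPM in wild-type high-density libraries. With TMM, in low against high density, 0 of the 12 were called higher and 10 lower in H2R-deficient cells, and 0 and 3 in wild-type cells. For this and the lists below, the shares of all tested genes were 30.0% higher and 23.9% lower in H2R-deficient cells. In wild-type cells they were 8.51% and 4.15%. All 9 B cell markers were called higher in low-density cells of both genotypes, with sums of 979 to 1069 CPM in H2R-deficient low-density, 30.6 to 41.5 CPM in H2R-deficient high-density, 178 to 424 CPM in wild-type low-density and 34.8 to 42.5 CPM in wild-type high-density libraries. Of 8 dendritic cell markers, 6 were called higher in H2R-deficient and 5 in wild-type low-density cells, with sums of 713 to 947 CPM, 7.80 to 11.5 CPM, 236 to 567 CPM and 6.73 to 25.7 CPM in the 4 groups in the same order. Of 8 natural killer cell markers 6 and 4 were called higher, with sums of 17.7 to 19.5 CPM, 1.37 to 1.40 CPM, 10.9 to 12.1 CPM and 0.458 to 1.05 CPM, and of 6 markers of dividing cells 6 and 5, with sums of 207 to 328 CPM, 54.7 to 59.4 CPM, 137 to 195 CPM and 52.2 to 76.8 CPM. All 4 tested erythroid markers were called lower in both genotypes, with sums of 0.165 to 0.427 CPM, 19.9 to 45.9 CPM, 0.453 to 1.57 CPM and 45.1 to 167 CPM. Of 9 macrophage markers 5 were called higher and 2 lower in H2R-deficient and 0 in wild-type low-density cells, with sums of 129 to 159 CPM, 95.2 to 122 CPM, 174 to 186 CPM and 146 to 179 CPM. Of 9 T cell markers 1 and 3 were called higher, with sums of 73.5 to 90.3 CPM, 9.91 to 31.3 CPM, 76.9 to 81.2 CPM and 12.9 to 18.4 CPM. Of 6 mast cell markers 4 and 1 were called lower, with sums of 25.2 to 28.5 CPM, 34.7 to 46.0 CPM, 24.7 to 29.5 CPM and 27.3 to 35.3 CPM. Of 4 tested eosinophil markers 1 was called higher and 2 lower in both genotypes, with sums of 35.2 to 39.2 CPM, 19.5 to 20.5 CPM, 42.1 to 45.3 CPM and 48.3 to 56.4 CPM, and 1 was called lower in H2R-deficient than in wild-type high-density cells, the 1 marker called between genotypes. Of 6 monocyte markers 2 were called higher and 2 lower in H2R-deficient and 1 and 1 in wild-type low-density cells. Nr4a1, called lower in both genotypes, is among these 6 and also among the cyclic AMP response genes below. Of 4 tested platelet markers 0 were called. No listed marker was at 0 in every library. The part of these cells in the receptor differences was not tested, and in bulk RNA fewer cells of a type and less RNA per cell cannot be told apart.

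Adora2b had the highest level per transcript length of the 6 receptors in every group and Ptger4 the lowest of the 5 that passed the filter. Levels per length are in TPM, counts per kilobase of exon scaled to the same sum in each library, made here from the deposited counts and exonic lengths. Adora2b averaged 90.4 ± 11.1 TPM in H2R-deficient low-density cells, 89.2 ± 20.1 TPM in H2R-deficient high-density cells, 77.8 ± 13.0 TPM in wild-type low-density cells and 48.6 ± 20.1 TPM in wild-type high-density cells (SD, n = 2 each). Ptger4 averaged 12.5 ± 0.67 TPM, 3.85 ± 0.72 TPM, 8.08 ± 2.79 TPM and 4.45 ± 0.18 TPM in the same groups (SD, n = 2 each). By its mean TPM, Adora2b stood above 90.3% of tested genes, Adora2a above 84.4%, Ptger2 above 82.0%, Ptgir above 70.8% and Ptger4 above 56.3%. Hrh2 itself stood above 69.0%.

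The order of the receptors differed between groups in the place of Adora2a. In H2R-deficient low-density cells the order of mean TPM was Adora2b, Adora2a, Ptger2, Ptgir and Ptger4, and the 2 libraries of one receptor overlapped those of no neighbour. Adora2a averaged 77.3 ± 0.33 TPM there, against 33.5 ± 2.55 TPM for Ptger2 (SD, n = 2 each). In H2R-deficient high-density cells Ptger2 averaged 30.7 ± 8.60 TPM and Adora2a 21.7 ± 5.35 TPM (SD, n = 2 each), so the pair stood in the other order, but their libraries overlapped, as did those of Adora2a and Ptgir. In wild-type low-density cells Adora2a (45.0 ± 15.2 TPM) and Ptger2 (41.5 ± 6.69 TPM) overlapped, and in wild-type high-density cells so did Adora2b with Ptger2 and Ptger2 with Adora2a. The summed TPM of both adenosine receptors was 160 to 176 in H2R-deficient low-density, 93.0 to 129 in H2R-deficient high-density, 121 to 124 in wild-type low-density and 49.3 to 88.9 in wild-type high-density libraries. The 3 prostaglandin receptors together gave 62.9 to 64.3, 47.9 to 56.5, 60.4 to 70.8 and 34.7 to 56.5 TPM in the same groups, so in each group adenosine receptor transcripts had the higher mean sum.

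**Figure D1:**
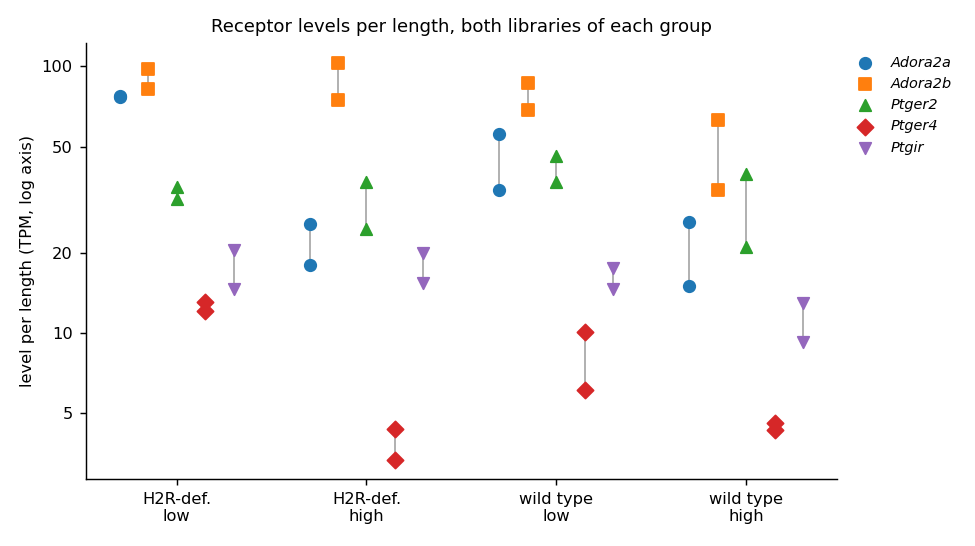
Level per length (TPM, logarithmic axis) of the 5 receptors that passed the filter, with 1 point per library and a line joining the 2 libraries of a group. Adora2b has the highest and Ptger4 the lowest mean in every group, and Adora2a lies above Ptger2 in H2R-deficient low-density cells, where it averaged 77.3 TPM.

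In H2R-deficient mice, low-density neutrophils had more Adora2a and Ptger4 transcript and less Adora2b, Ptger2 and Ptgir transcript than high-density neutrophils, relative to the bulk of genes. All 5 tested receptors passed the edgeR test, in which 54.0% of all tested genes were called (30.0% higher and 23.9% lower), so a called gene is not rare in this comparison. DESeq2 also called all 5, and 52.4% of all genes. Nor were the differences large for this comparison, where the median absolute log2 fold change of all tested genes was 0.988 with TMM. Those of Adora2a (0.86), Ptger4 (0.73), Adora2b (-0.96) and Ptger2 (-0.85) were smaller in size than that, and that of Ptgir (-1.0) lay close to it. On the TMM scale the 2 libraries of each group did not overlap for any of the 5, as was so for 81.1% of all genes. In CPM of all counts the groups overlapped for Adora2b, Ptger2 and Ptgir. The direction was split within each ligand family with more than 1 member: 1 adenosine receptor was higher and the other lower, and likewise for the prostaglandin E2 receptors. Values per library below are CPM on the TMM scale.

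Among the adenosine receptors, Adora2a, the high-affinity receptor through which adenosine restrains neutrophil activation, rose. It lies on chromosome 10 (75316943 to 75334788, plus strand, GRCm38, ENSMUSG00000020178). Its level was 48.9 and 55.9 CPM in H2R-deficient low-density libraries 1 and 2, against 33.2 and 24.4 CPM in H2R-deficient high-density libraries 1 and 2. Both low-density libraries lay above both high-density ones. The group means were 52.4 ± 4.91 CPM and 28.8 ± 6.17 CPM (SD, n = 2 each), a 1.82-fold difference (log2 fold change 0.86 ± 0.29 SE, edgeR adjusted p = 0.0317). The log2 fold change was 1.76 with total counts alone, and relative to the median gene the difference was 0.76 under both scalings. The call was lost when H2R-deficient high-density library 2 (0.66), low-density library 1 (0.96) or low-density library 2 (0.77) was left out, with the direction kept.

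Adora2b, the low-affinity receptor that responds where extracellular adenosine is abundant, fell. It lies on chromosome 11 (62248984 to 62266453, plus strand, ENSMUSG00000018500). Its level was 45.1 and 43.6 CPM in H2R-deficient low-density libraries, against 98.0 and 74.5 CPM in H2R-deficient high-density libraries. On the TMM scale these high-density libraries were the highest of the 8 for this gene, with no overlap. In CPM of all counts H2R-deficient low-density library 1 (67.2) lay above H2R-deficient high-density library 2 (55.2). The means were 44.3 ± 1.08 CPM and 86.2 ± 16.6 CPM (SD, n = 2 each), 1.95-fold lower at low density (log2 fold change -0.96 ± 0.30 SE, edgeR adjusted p = 0.0221). Scaled by total counts alone it was not called and the log2 fold change was -0.057, while that of the median gene was 1.0. It was also not called when H2R-deficient high-density library 1 (-0.74), low-density library 1 (-0.98) or low-density library 2 (-0.93) was left out.

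**Figure D2:**
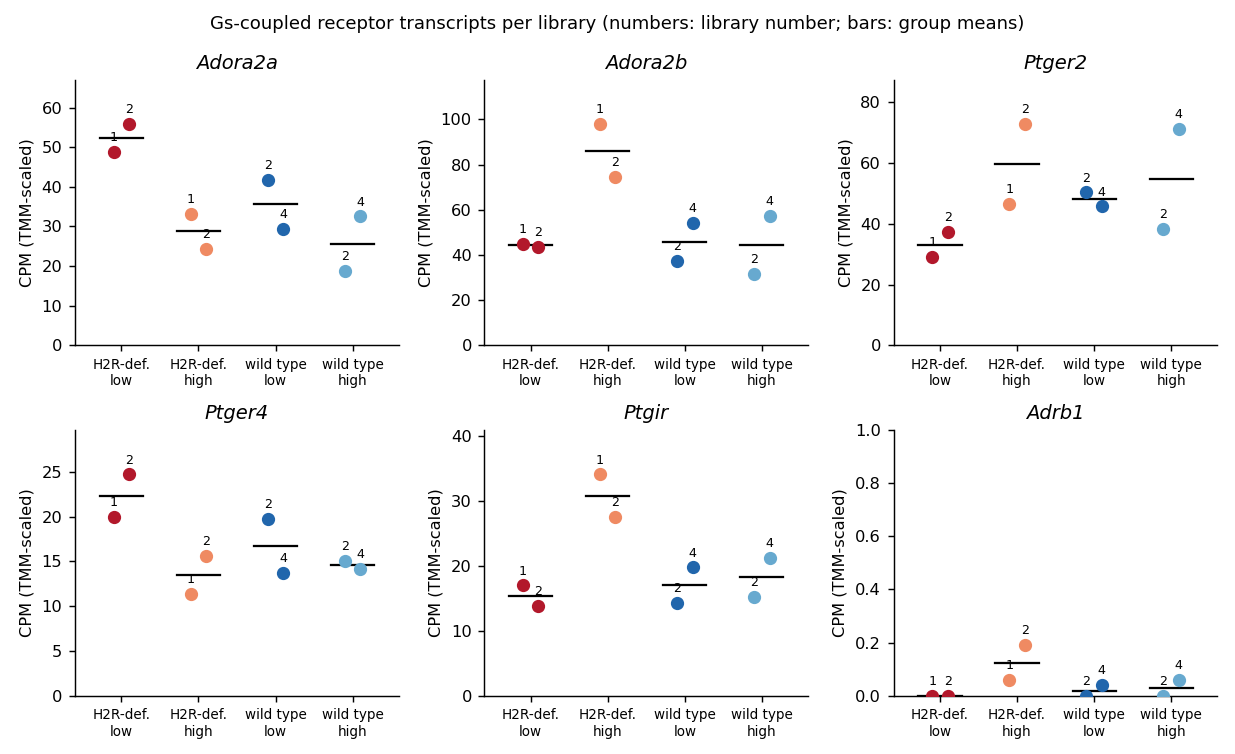
CPM on the TMM scale of the 6 receptors in each library, 1 panel per gene with its own axis from 0; numbers are library numbers and bars are group means (n = 2). Adora2a and Ptger4 lie higher and Adora2b, Ptger2 and Ptgir lower in H2R-deficient low-density than in H2R-deficient high-density libraries on this scale; with total counts alone Ptger2 is 0.055 higher on the log2 scale, and Adora2b and Ptgir are not called. Adrb1 is near 0 in all panels.

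The prostaglandin E2 receptors were split in the same manner. Ptger4, which encodes EP4, lies on chromosome 15 (5206661 to 5244187, minus strand, ENSMUSG00000039942). Its level was 19.9 and 24.7 CPM in H2R-deficient low-density libraries, against 11.4 and 15.6 CPM in H2R-deficient high-density libraries, without overlap. It rose 1.66-fold, with means of 22.3 ± 3.37 CPM and 13.5 ± 2.96 CPM (SD, n = 2 each; log2 fold change 0.73 ± 0.24 SE, edgeR adjusted p = 0.0291). Scaled by total counts it was 1.63. The call was lost without H2R-deficient high-density library 1 (0.53) or H2R-deficient low-density library 2 (0.57). Ptger4 shares 1015 of its 6648 exonic bases with Gm15937 and 82 with Ttc33, both on the other strand, and no source used here gives the strand setting of the counting. Gm15937 had 0 to 3 counts and Ttc33 had 87 to 372.

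Ptger2, which encodes EP2, lies on chromosome 14 (44988195 to 45003820, plus strand, ENSMUSG00000037759). Its level was 29.1 and 37.2 CPM in H2R-deficient low-density libraries, against 46.5 and 72.9 CPM in H2R-deficient high-density libraries. The groups did not overlap, but high-density library 2 was far above library 1. The means were 33.2 ± 5.75 CPM and 59.7 ± 18.6 CPM (SD, n = 2 each), 1.80-fold lower at low density (log2 fold change -0.85 ± 0.31 SE, edgeR adjusted p = 0.0462). This was the call nearest the threshold and the direction turned with total counts alone, where the log2 fold change was 0.055 against 1.0 for the median gene. It was not called without H2R-deficient high-density library 2 (-0.49), H2R-deficient low-density library 1 (-0.67) or library 2 (-1.03), or wild-type low-density library 2 (-0.84) or library 4 (-0.82), which enter through the shared estimate of spread. Ptger2 lies across Gm17173 on the other strand, with which it shares 0 exonic bases.

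Ptgir, the prostacyclin receptor, lies on chromosome 7 (16906490 to 16910905, plus strand, ENSMUSG00000043017) and had the lowest adjusted p of the 5. Its level was 17.0 and 13.9 CPM in H2R-deficient low-density libraries, against 34.1 and 27.6 CPM in H2R-deficient high-density libraries. On the TMM scale these high-density libraries were the highest of the 8, as for Adora2b. In CPM of all counts H2R-deficient low-density library 1 (25.3) lay above H2R-deficient high-density library 2 (20.4). The means were 15.4 ± 2.19 CPM and 30.8 ± 4.62 CPM (SD, n = 2 each), 2.00-fold lower at low density (log2 fold change -1.0 ± 0.24 SE, edgeR adjusted p = 0.0076). Under total counts alone it was not called (-0.087, against 1.0 for the median gene). It was also not called without H2R-deficient high-density library 1 (-0.83) or H2R-deficient low-density library 2 (-0.86).

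Which of the 5 were called thus rested on single libraries. The count was 2 without H2R-deficient high-density library 1 (Adora2a and Ptger2), 3 without H2R-deficient high-density library 2 (Adora2b, Ptger4 and Ptgir), 2 without H2R-deficient low-density library 1 (Ptger4 and Ptgir) and 0 without H2R-deficient low-density library 2. Total counts alone gave 2, Adora2a and Ptger4, where that scaling called 54.2% of all genes. The direction of all 5 was kept under each left-out library.

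In wild-type mice 0 of the 5 tested receptors were called between low-density and high-density neutrophils, where 12.7% of all tested genes were called. None reached an unadjusted p under 0.05 in edgeR, and DESeq2 called 0 of them, with 18.2% of all genes called. Adora2a had 41.8 and 29.4 CPM in wild-type low-density libraries 2 and 4, against 18.8 and 32.5 CPM in wild-type high-density libraries 2 and 4. The groups overlapped, and the log2 fold change was 0.47 ± 0.29 SE (edgeR adjusted p = 0.280). Leaving out wild-type high-density library 2 gave 0.13 and leaving out library 4 gave 0.92, so the 2 wild-type high-density libraries set its size.

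Adora2b had 37.4 and 54.2 CPM in wild-type low-density and 31.5 and 57.2 CPM in wild-type high-density libraries, which overlapped (log2 fold change 0.048 with a 95% interval of -0.62 to 0.71). Ptger2 had 50.3 and 45.7 CPM in wild-type low-density and 38.3 and 71.4 CPM in wild-type high-density libraries (-0.19, interval -0.90 to 0.52). The wild-type high-density pair was the widest of any group for this gene. Ptger4 had 19.8 and 13.7 CPM against 15.1 and 14.2 CPM (0.20, interval -0.34 to 0.74), and Ptgir 14.3 and 19.8 CPM against 15.2 and 21.2 CPM (-0.095, interval -0.64 to 0.45), in wild-type low-density and wild-type high-density libraries in that order. For 4 of the 5 receptors wild-type high-density library 4 was above library 2, and Ptger4 was the exception. Under total counts alone Adora2a (1.05) and Ptger4 (0.78) were called higher in wild-type low-density cells, where that scaling called 33.2% of all genes, and the log2 fold changes of Ptger2 (0.38) and Ptgir (0.46) turned positive. In CPM of all counts the wild-type low-density libraries lay above the high-density ones without overlap for Adora2a, Adora2b, Ptger4 and Ptgir. Ptger2 overlapped on both scales.

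**Figure D3:**
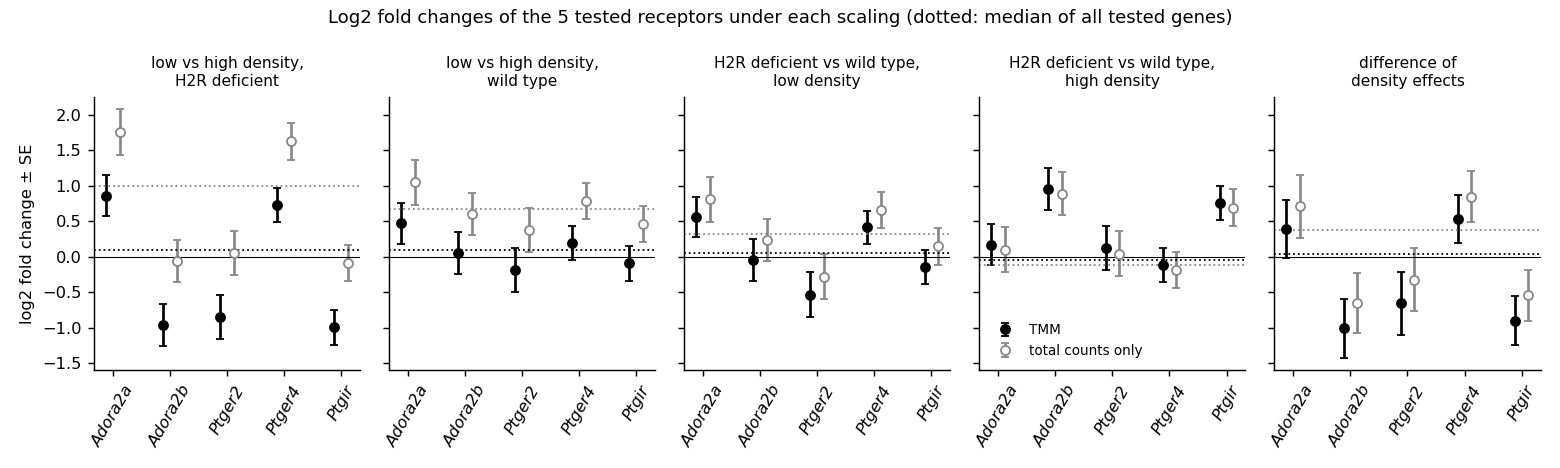
Log2 fold change ± SE of the 5 tested receptors in each comparison, with TMM scaling (filled) and total counts alone (open); dotted lines are the medians of all tested genes under each scaling. In the first panel Adora2a (0.86) and Ptger4 (0.73) lie above and Adora2b, Ptger2 and Ptgir below the median gene under both scalings, although Ptger2 turns to 0.055 with total counts.

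The ratio of 2 receptors within a library does not depend on scaling, and the pairs that share a ligand were set against each other per length after their values had been seen, with no test. Adora2a stood at 0.790 and 0.934 of Adora2b in H2R-deficient low-density libraries, against 0.246 and 0.239 in H2R-deficient high-density libraries. In wild-type cells the ratio was 0.813 and 0.394 in low-density libraries 2 and 4, against 0.435 and 0.414 in high-density libraries 2 and 4. The wild-type groups overlapped. The H2R-deficient groups did not, which was fixed in advance. Adora2a was higher and Adora2b lower there without overlap on the TMM scale, so their ratio could not overlap. At high density the H2R-deficient libraries lay below both wild-type libraries.

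Ptger4 stood at 0.380 and 0.368 of Ptger2 in H2R-deficient low-density libraries, against 0.136 and 0.118 in H2R-deficient high-density libraries. In wild-type cells the ratio was 0.218 and 0.167 in low-density libraries, against 0.218 and 0.110 in high-density libraries. The H2R-deficient low-density libraries were the highest of the 8, and the H2R-deficient high-density values lay within the wild-type high-density range. That the H2R-deficient groups did not overlap was again fixed by the opposite levels of both genes on the TMM scale.

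**Figure D4:**
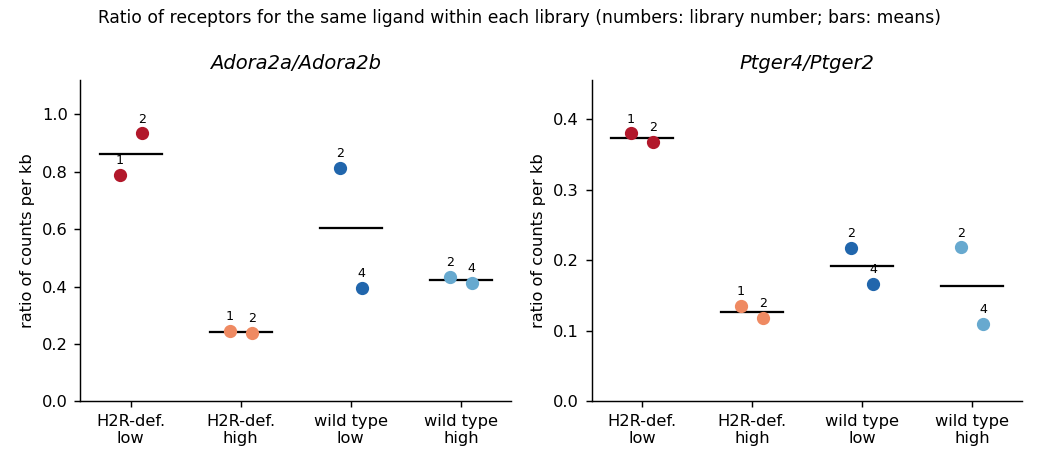
Ratio of counts per kilobase of Adora2a to Adora2b and of Ptger4 to Ptger2 in each library; numbers are library numbers and bars are group means (n = 2). The H2R-deficient low-density libraries lie at 0.790 and 0.934 (left) and at 0.380 and 0.368 (right), above both H2R-deficient high-density libraries in each panel. This order follows from the opposite levels of each pair in these groups and adds no separate result.

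The comparison of genotypes asks whether cells without H2R carry more or less of the other Gs-coupled receptors. At low density 0 of the 5 were called between H2R-deficient and wild-type cells, as were 0.0% of all tested genes, and 0 of the 5 had an unadjusted p under 0.05 or were called by DESeq2, which called 8.46% of the genes it adjusted. The differences were 0.56 ± 0.29 SE for Adora2a (95% interval -0.090 to 1.20), 0.41 ± 0.24 for Ptger4 (-0.12 to 0.95), -0.54 ± 0.31 for Ptger2 (-1.24 to 0.17), -0.049 ± 0.29 for Adora2b (-0.71 to 0.61) and -0.14 ± 0.24 for Ptgir (-0.69 to 0.40) on the log2 scale. For Adora2a, Ptger4 and Ptger2 the H2R-deficient and wild-type low-density libraries given above did not overlap, which was so for 60.1% of all genes. Total counts alone turned the values of Adora2b (0.23) and Ptgir (0.14) positive.

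At high density 0 of the 5 were called by edgeR after adjustment, where 0.208% of all tested genes were called. Adora2b had 98.0 and 74.5 CPM in H2R-deficient high-density libraries, against 31.5 and 57.2 CPM in wild-type high-density libraries. The groups did not overlap, and the log2 fold change was 0.96 ± 0.30 SE (95% interval 0.29 to 1.63, edgeR adjusted p = 0.153). Ptgir had 34.1 and 27.6 CPM against 15.2 and 21.2 CPM in the same groups, also without overlap (0.76 ± 0.24 SE, 95% interval 0.21 to 1.31, edgeR adjusted p = 0.164). A lack of overlap was found for 46.9% of all genes in this comparison. These 2 receptors had an unadjusted p under 0.05, as had 18.7% of all genes, DESeq2 called Adora2b alone among the 5 (6.23% of the genes it adjusted), and with no filter on low counts edgeR called both (3.9% of all genes). The other 3 differed by 0.17 (Adora2a, interval -0.49 to 0.83), 0.12 (Ptger2, -0.59 to 0.83) and -0.12 (Ptger4, -0.67 to 0.43) on the log2 scale.

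Whether the density difference itself was changed by the loss of H2R was tested as the difference of both density effects, H2R deficient minus wild type. None of the 5 was called, and 0.0% of all genes were. The values were -1.01 ± 0.42 SE for Adora2b (edgeR adjusted p = 0.207), -0.90 ± 0.34 for Ptgir (edgeR adjusted p = 0.180), -0.66 ± 0.44 for Ptger2 (edgeR adjusted p = 0.420), 0.53 ± 0.34 for Ptger4 (edgeR adjusted p = 0.396) and 0.39 ± 0.41 for Adora2a (edgeR adjusted p = 0.612). Adora2b and Ptgir had an unadjusted p under 0.05, as had 21.1% of all genes, and DESeq2 called 0 of the 5 and 8.95% of the genes it adjusted. With no filter on low counts edgeR called Adora2b (-0.95) alone among the 5, and 4.31% of all genes. The calls made in H2R-deficient cells and missing in wild-type cells are therefore not shown to differ between genotypes under TMM with the filter. This comparison and the genotype comparisons share libraries with the density comparisons.

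Adrb1, the sixth receptor, lies on chromosome 19 (56722372 to 56724862, plus strand, ENSMUSG00000035283) and did not pass the filter. It had 0 and 0 counts in H2R-deficient low-density libraries, 1 and 3 in H2R-deficient high-density libraries, 0 and 1 in wild-type low-density libraries and 0 and 1 in wild-type high-density libraries. A floor of 3 counts corresponds to 0.124 to 0.151 CPM of all counts in these libraries and covers counting error only, so differences in Adrb1 were not detectable at this depth and no fold is given.

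The genes whose levels ran most like each receptor over the 8 libraries were picked by Pearson correlation of log2 CPM among 7373 tested genes with a symbol and 5 CPM or more on average. For Adora2a they were Fcf1 (r = 0.989), Psmb6 (0.988) and Pfdn2 (0.980), which act in ribosome assembly, the proteasome and chaperoning of new proteins. For Adora2b they were Nsun3 (0.964), Gpatch3 (0.962) and Arl6ip5 (0.962), and for Ptger2 they were Vps11 (0.980), Ilkap (0.968) and Brox (0.968). For Ptger4 they were Il15ra (0.978), the receptor chain that presents interleukin 15, Irak1 (0.966), a kinase of Toll-like receptor signalling, and Atr (0.964), and for Ptgir they were Aph1a (0.970), Wdyhv1 (0.967) and Slc6a13 (0.962). The 8 points share 4 groups and their library scaling, and the 3 best of 7373 genes are high by selection. No receptor was among the 3 genes most like another, although Adora2b and Ptgir correlated at r = 0.951 over the same 8 libraries.

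The other genes of these pathways were read from 7 lists, 96 distinct tested genes in all. In low against high density 25 were called higher and 33 lower in H2R-deficient cells, beside 30.0% and 23.9% of all genes. In wild-type cells 8 were called higher and 10 lower, beside 8.51% and 4.15% of all genes. In both genotype comparisons and in the difference of effects edgeR called 0 of the 96, with 23, 30 and 22 at an unadjusted p under 0.05, beside 21.0%, 18.7% and 21.1% of all genes. DESeq2 called 10, 16 and 8 of the 96, beside 8.46%, 6.23% and 8.95% of the genes it adjusted. Total counts alone gave 4 called higher and 1 lower in the difference, and 0 in both genotype comparisons. The values below are log2 fold changes of low against high density in H2R-deficient cells with means in CPM on the TMM scale (SD, n = 2 each), unless wild type is named, and the median gene stands at 0.098 with TMM and at 1.0 with total counts alone. Total counts alone called 54.2% of all genes in H2R-deficient and 33.2% in wild-type cells, in either direction. Shares by direction were not computed for that scaling. Its median gene lies above 0, so its counts of genes called higher are no result about a list.

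Receptors for adenosine, prostaglandins, thromboxane and catecholamines that couple to other G proteins were also split. Of 11 listed, 7 were tested, with 1 called higher and 3 lower in H2R-deficient cells (median -1.27) and 0 in wild-type cells. Total counts alone gave 1 higher and 1 lower (median -0.37) in H2R-deficient and 1 higher in wild-type cells. Adora3, the Gi-coupled adenosine receptor that mediates neutrophil chemotaxis, had 6.12 and 9.72 CPM in H2R-deficient low-density libraries, against 26.7 and 29.9 CPM in H2R-deficient high-density libraries. In wild-type cells it had 13.7 and 19.5 CPM in low-density libraries, against 13.4 and 13.6 CPM in high-density libraries. It fell in H2R-deficient cells (-1.84 ± 0.26 SE, edgeR adjusted p = 0.000666). On the TMM scale all 4 libraries of wild-type cells lay between the 2 H2R-deficient groups, but not in TPM. There wild-type low-density library 4 (15.5) lay above both H2R-deficient high-density libraries (14.0 and 14.9). Both wild-type high-density libraries (7.23 and 7.41) lay below H2R-deficient low-density library 2 (9.12). The difference of effects was -2.14 ± 0.36 SE, which edgeR did not call with TMM (adjusted p = 0.0906) and called with total counts alone (-1.80). Under that scaling the median gene stood at 0.38 in the difference, and the number of all genes called is given further below. Adora1, also Gi-coupled, fell by 1.27, and Ptger3, the EP3 receptor, rose by 2.62 on 4 to 103 counts a library. Ptger1, the EP1 receptor, fell by 0.59 with TMM, a direction that turned to 0.31 with total counts alone.

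Of 18 other Gs-coupled receptors, 7 were tested, with 2 called higher and 2 lower in H2R-deficient cells (median 0.085) and 0 in wild-type cells, and with 4 and 3 called higher and 0 lower under total counts. Htr7, a serotonin receptor, rose to 7.26 ± 2.78 CPM in low-density cells, against 0.718 ± 0.52 CPM in high-density cells (3.34 ± 0.51 SE, edgeR adjusted p = 0.000856). Calcrl, the receptor for calcitonin gene-related peptide and adrenomedullin, rose by 0.74. Vipr1, a receptor for vasoactive intestinal peptide, and the orphan receptor Gpr3 fell by 1.58 and fell by 2.28, both on few counts (29 to 69 and 5 to 14 a library).

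The proteins that receive and end the receptor signal moved both ways. Of 22 genes for Gs, its partners and receptor desensitisation, 4 were called higher and 10 lower with TMM (median -0.61), but 9 higher and 1 lower with total counts (median 0.29). Arrb2, the arrestin that uncouples and internalises receptors, fell to 135 ± 27.8 CPM in low-density cells, against 365 ± 43.8 CPM in high-density cells (-1.43 ± 0.20 SE, edgeR adjusted p = 0.000605), and was still called lower with total counts (-0.54). Grk5, a receptor kinase, fell by 1.20, whereas Grk3, another, rose by 2.71 and Gnb4, a G protein beta subunit, by 3.85. In wild-type cells 1 of the 22 was called higher, Gnb4 (2.97), and 1 lower, Rgs2 (-1.22), against 5 and 0 with total counts.

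Of 23 tested genes that carry the cyclic AMP signal onward, 7 were called higher and 7 lower in H2R-deficient cells (median 0.27), and 4 higher and 0 lower in wild-type cells. Under total counts 12 and 10 were called higher and 0 lower. Pkig, an inhibitor of protein kinase A, rose to 23.4 ± 0.40 CPM in low-density cells, against 4.52 ± 0.20 CPM in high-density cells (2.37 ± 0.29 SE, edgeR adjusted p = 0.000389). Akap8, an anchor of that kinase, rose by 1.49 and Prkar2a, a regulatory subunit of it, by 1.68, and both were also called in wild-type cells (0.78 and 1.13). Atf1, a transcription factor of the CREB family, fell by 1.09 and was not called with total counts alone (-0.19).

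Genes that release or remove adenosine also differed between the populations. Of 12 tested, 6 were called higher and 3 lower in H2R-deficient cells (median 1.17) and 3 higher and 0 lower in wild-type cells, and under total counts 9 higher and 2 lower, and 4 higher and 0 lower. Dpp4, a surface peptidase listed because the human protein binds adenosine deaminase, a binding not known of the mouse protein, and also a lymphocyte protein, rose to 16.0 ± 1.40 CPM in low-density cells, against 1.41 ± 0.17 CPM in high-density cells (3.51 ± 0.46 SE, edgeR adjusted p = 0.000535). Panx1, the channel that releases ATP, rose by 2.51 and Enpp1, a nucleotide pyrophosphatase, by 2.54. All 3 were called higher in wild-type low-density cells as well (2.46, 1.71 and 1.61). Entpd3, an enzyme that hydrolyses ATP and ADP, fell by 2.05. The other genes called lower in H2R-deficient cells were Entpd1 (-1.81) and Nt5e (-1.44), with medians of 743 and 14.4 TPM over the 8 libraries. In wild-type cells neither was called (-0.86 and -0.52). The B cell and dendritic cell marker sums given above were also higher in the low-density groups, and their part in these differences was not tested.

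Of 11 genes that make, move or break down prostaglandin E2 and prostacyclin, 4 were called higher and 2 lower in H2R-deficient cells (median 0.72) and 0 higher and 1 lower in wild-type cells, and under total counts 9 higher and 0 lower, and 3 higher and 1 lower. Ptgs2, the inducible cyclooxygenase, averaged 529 ± 50.5 CPM in H2R-deficient low-density cells, against 872 ± 44.2 CPM in H2R-deficient high-density cells (-0.72 ± 0.26 SE, edgeR adjusted p = 0.0386), a direction that turned to 0.19 with total counts. In wild-type cells it was the 1 gene called lower, at 499 ± 123 CPM in low-density cells, against 1726 ± 541 CPM in high-density cells (-1.79 ± 0.26 SE, edgeR adjusted p = 0.0081), and it stayed lower with total counts (-1.22). Ptges, the inducible prostaglandin E synthase, rose by 0.79 in H2R-deficient cells, Abcc4, which exports prostaglandins and cyclic AMP, by 0.72, and Slco2a1, the prostaglandin uptake carrier, by 4.07, at 2.60 ± 2.23 CPM in low-density cells, against 0.146 ± 0.21 CPM in high-density cells.

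Genes known to be induced by cyclic AMP included called falls in low-density cells of both genotypes with TMM, and in wild-type cells alone with total counts. Of 16 tested, 1 was called higher and 8 lower in H2R-deficient cells (median -0.90), and 0 higher and 9 lower in wild-type cells (median -1.18). Total counts alone gave H2R-deficient counts of 3 higher and 0 lower and wild-type counts of 0 higher and 6 lower. Dusp1, a phosphatase that ends MAP kinase signals, averaged 1456 ± 181 CPM in H2R-deficient low-density cells, against 3692 ± 341 CPM in H2R-deficient high-density cells (-1.34 ± 0.20 SE, edgeR adjusted p = 0.000847). It averaged 1665 ± 106 CPM in wild-type low-density cells, against 4762 ± 715 CPM in wild-type high-density cells (-1.52 ± 0.20 SE, edgeR adjusted p = 0.00603). Pde4b, which degrades cyclic AMP, Nr4a1, an immediate early nuclear receptor, and Rgs2, which curbs G protein signals, fell as well, with log2 fold changes of -1.07, -1.19 and -1.28 in H2R-deficient cells and -1.14, -1.48 and -1.22 in wild-type cells. With total counts none of these 4 was called in H2R-deficient cells, and Dusp1, Pde4b and Nr4a1 were called lower in wild-type cells. These genes also answer to stimuli other than cyclic AMP.

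**Figure D5:**
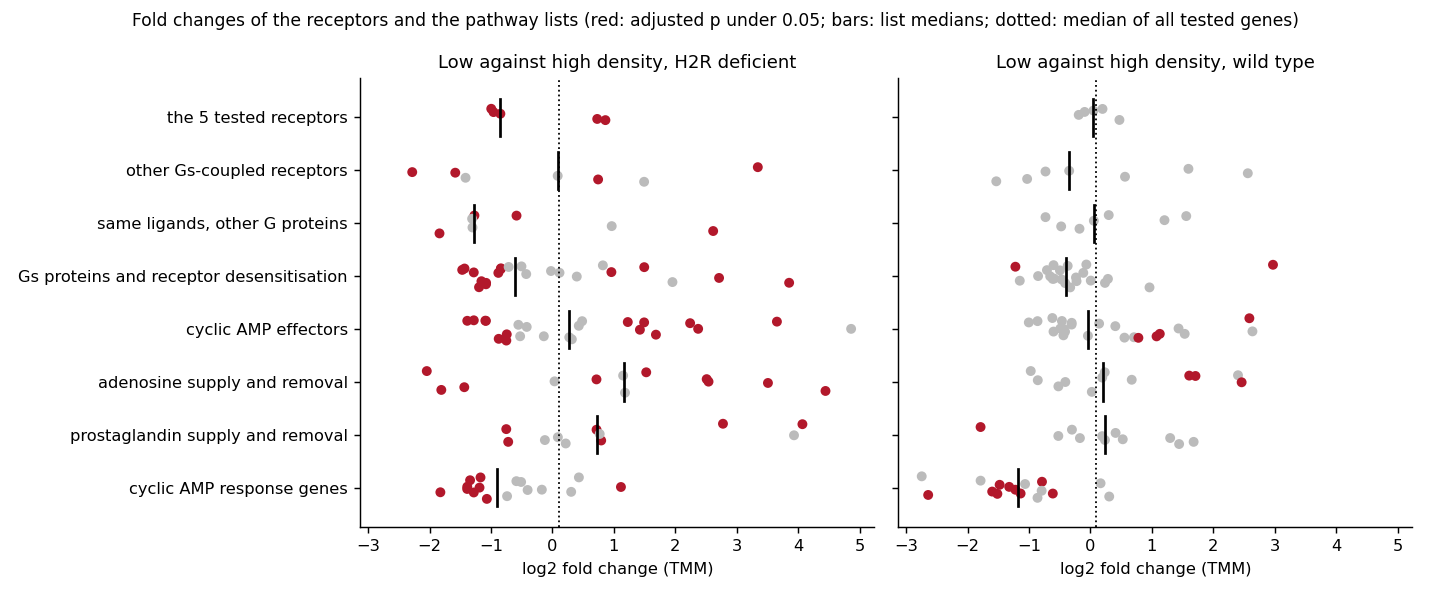
Log2 fold change with TMM scaling of low against high density for each tested gene of the receptors and of 7 pathway lists, in H2R-deficient (left) and wild-type (right) cells; red points have an edgeR adjusted p under 0.05, bars are list medians and dotted lines the median of all tested genes. The 5 receptors are all red on the left and all grey on the right, and the cyclic AMP response genes lie mostly below 0 in both, which with total counts alone holds for the wild-type median and brings the H2R-deficient median close to 0.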

How the data were processed

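The authors deposited unnormalized counts of reads per gene, in featureCounts layout per the file headers, for 8 libraries in 4 groups. GRCm38 was the build, and STAR 2.5.2b, Trimmomatic 0.36, Subread 1.5.2 and bcl2fastq 2.17.1.14 are the tools, that the submitters' processing notes list. No source used here gives strand or multimapping settings. Of 49315 identifiers, 48970 were matched to a symbol in GENCODE M21 and 345 were not.

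Genes were filtered with edgeR's filterByExpr, which left 14909, and scaled by TMM. All 8 libraries entered a single robust quasi-likelihood model with a mean for each group (R 4.3.3, edgeR 4.0.16, 4 residual degrees of freedom, common biological coefficient of variation 0.236). P-values were adjusted by Benjamini-Hochberg over all tested genes and called under 0.05. No exact test of 2 against 2 libraries can pass that threshold. The code was tested on simulated data. DESeq2 1.42.0, other scalings, filters and left-out libraries were alternatives. Summed marker lists and the count floor use CPM of all counts, and other CPM values use TMM-scaled library sizes. TPM was computed from counts and exonic lengths. Correlations used a prior count of 2.

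The receptors, pathway lists and marker lists were chosen with earlier results of these data known. Named genes are the 6 receptors, the 3 most correlated genes of each tested receptor, from each list up to 4 genes by lowest adjusted p, and Hrh2. Entpd1 and Nt5e were named beyond that rule, as the other adenosine genes called lower in H2R-deficient cells.

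Libraries with the same number deviated together within a genotype (correlations 0.326 in H2R-deficient and 0.155 in wild-type cells, 2 pairs each). These values cannot establish a pairing, and the labels do not say what a number marks, so the block by number is an assumption.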

Additional observations from a re-analysis of the deposited data

How the results depend on the processing

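Total-count scaling cut the receptors called in H2R-deficient low against high density to 2 and gave 2 in wild type, where TMM gave 0. Without the low-count filter 2 were called in the genotype comparison at high density and 1 in the difference of effects. DESeq2 called all 5 in H2R-deficient density, as edgeR did, and 1 between genotypes at high density, where edgeR called 0. Over all genes, total counts called 4946 in wild-type low against high density, 73 between genotypes at high density and 635 in the difference of effects. Without the filter the counts were 3361 and, between genotypes, 1360 at low and 1095 at high density, and 1210 in the difference. DESeq2 gave 870, 677 and 946 in the last 3. A fit of the compared groups alone gave 608 in wild type and 0 between genotypes at high density. The replicate block gave 28 in the difference, where edgeR without it gave 0 (3150 at an unadjusted p under 0.05), and changed the call of none of the 5 tested receptors in the density comparisons or their difference, while Hrh2 gained the call in both density comparisons; genotype comparisons share 1 number and were not blocked. Signs turned, with total counts, for Ptger2 (0.055) in H2R-deficient density, for Ptger2 (0.38) and Ptgir (0.46) in wild-type density and for Adora2b (0.23) and Ptgir (0.14) between genotypes at low density, and, with DESeq2 size factors and the DESeq2 test, for Adora2b in wild-type density (-0.011 in both). The cause was not tested.

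Leaving out 1 library gave 0 to 5 receptors called in H2R-deficient density and 0 to 0 in the other 4 comparisons. All-gene counts were 5394 to 8341 and 123 to 1724 for density in H2R-deficient and wild-type cells, 0 to 121 and 0 to 40 for genotype at low and high density, and 0 to 3 for the difference. Log2 fold changes that crossed 0 ranged, in wild-type density, from -0.32 to 0.54 (Adora2b), -0.57 to 0.32 (Ptger2), -0.089 to 0.44 (Ptger4) and -0.34 to 0.16 (Ptgir). Between genotypes at low density they ranged from -0.29 to 0.22 (Adora2b) and -0.35 to 0.086 (Ptgir), and at high density from -0.18 to 0.61 (Adora2a), -0.26 to 0.64 (Ptger2) and -0.36 to 0.085 (Ptger4). In the difference Adora2a ranged from -0.053 to 0.73. A group left with 1 library is assumed to vary like the others. Depth limits Adrb1, at 0 to 3 counts a library.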
